A study of Mus musculus with 11 samples.

Results

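Hippocampal sections from melanoma-bearing mice given immune checkpoint inhibitors (labelled MELANOMA ICI, 3 sections) were compared with sections from tumour-free mice given isotype antibodies (labelled CONTROL, 3 sections). Each MELANOMA ICI section was set against the CONTROL section imaged in the same run: MELANOMA ICI 2 with CONTROL 1 in run 1, MELANOMA ICI 3 with CONTROL 2 in run 2, and MELANOMA ICI 1 with CONTROL 3 in run 3. Segmented objects were counted as cells when they measured 100 µm3 or more and held 10 transcripts or more. The comparison held 155457 cells of the 232117 in the series, from 6 of its 11 sections: 83755 in CONTROL and 71702 in MELANOMA ICI. The measured quantities were transcripts per cell, cell volume, and transcripts, DAPI and PolyT signal per unit of volume, none of which was used to choose or pair the sections, although the minimum of 10 transcripts and of 100 µm3 cuts off the low ends of transcripts and of volume.

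All mice were male C57Bl/6 wild-type animals of 10 to 12 weeks, and all sections were 10 µm thick. MELANOMA ICI mice carried tumours raised from 500000 cells of D4M-3A.UV2, a mouse melanoma line of the same strain background, placed in the skin on both sides and left for 1 week to engraft. For 3 weeks they were then given 3 doses of anti-CTLA-4 each week, at 1 mg a dose, and 2 doses of anti-PD-1 each week, at 200 µg a dose. CONTROL mice had no tumour and were given isotype antibodies by the same intraperitoneal route. The groups therefore differ in tumour and in inhibitors together, and the parts of the 2 cannot be told apart in this comparison alone. The labels used here tie no section to an animal and give no tumour size. The tests therefore compare sections, and their p-values cannot speak for the spread between animals.

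MERFISH reads individual RNA molecules in tissue through rounds of fluorescent barcoded probes and assigns them to segmented cells. DAPI stains DNA and marks nuclei, while PolyT is a probe for the poly(A) tails of messenger RNA and stains the cell body. The hippocampus is a folded structure whose neuron layers are densely packed, with glia, vessels and neuronal processes between them, and RNA content and size differ strongly between its cell types. CTLA-4 and PD-1 are brakes on T cells, and antibodies against them are used to release T-cell responses to tumours. The tables analysed here give 1 transcript total per object and no genes, so the tissue label could not be checked against markers and the results are levels per cell, not by gene or cell type.

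The 6 sections held 46254 to 111690 objects and 633088 to 3164943 assigned transcripts each, and no object identifier was shared between sections. Run 3 stood apart in both groups: its objects had a median volume of 1515 µm3 in CONTROL 3 and 1503 µm3 in MELANOMA ICI 1, against 161 to 195 µm3 in the 4 sections of runs 1 and 2. Differences are therefore given within runs, with averages over all sections of a group beside them. With 3 pairs, a two-sided exact sign-flip test has 8 arrangements and cannot give p below 0.25, and the exact permutation test that ignores runs cannot go below 0.1, so no difference could pass 0.05. The only sections of 1 group in 1 run were CONTROL ICI 1 and CONTROL ICI 2, tumour-free mice given the inhibitors, both in run 1. Their difference, CONTROL ICI 2 minus CONTROL ICI 1 on the log2 scale, is given as the same-group difference. The order of subtraction alone sets its sign. This difference rests on a single pair, in which 35.5% of objects of CONTROL ICI 1 and 49.8% of CONTROL ICI 2 held no transcript.

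Cells of MELANOMA ICI sections held fewer transcripts than those of the CONTROL section in runs 2 and 3 and the same median number in run 1. The median was 21 transcripts per cell in CONTROL 1 and 21 in MELANOMA ICI 2, 30 in CONTROL 2 and 24 in MELANOMA ICI 3, and 50 in CONTROL 3 and 35 in MELANOMA ICI 1. On the log2 scale the within-run differences (MELANOMA ICI minus CONTROL) were 0, -0.32 and -0.51, with a mean of -0.28 ± 0.26 (SD, n = 3 pairs), or 0.824-fold. The differences of runs 2 and 3 were larger in size than the same-group difference of 0.23. The exact sign-flip test gave p = 0.5, and 0.833 after Benjamini-Hochberg adjustment over the 5 measures, in a design that cannot reach 0.05. The SD of the pairs was nearly as large as the size of their mean. Without runs, section medians averaged 33.7 ± 14.8 in CONTROL and 26.7 ± 7.37 in MELANOMA ICI (SD, n = 3 sections each; exact permutation p = 0.7), and the ranges of the groups overlapped.

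**Figure D1:**
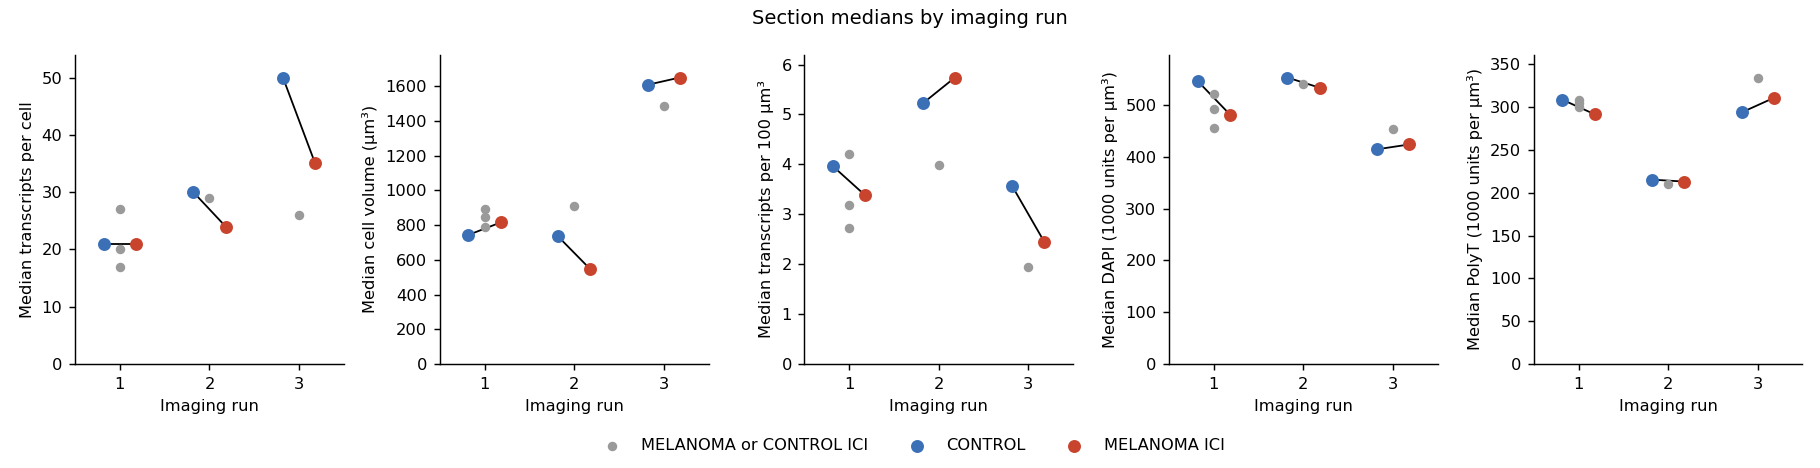
Section medians over cells of the 5 measures (vertical axes, in the units printed on each) by imaging run. Blue points are CONTROL, red points MELANOMA ICI, a line joins the pair of a run, and grey points are the run's other sections; median transcripts per cell are equal in run 1 (21 and 21) and lower in MELANOMA ICI in run 2 (30 and 24) and run 3 (50 and 35).

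Mean transcripts per cell, unlike the median, were lower in MELANOMA ICI in all 3 runs, by little in run 1. The mean was 36.3 in CONTROL 1 and 35.0 in MELANOMA ICI 2, 61.8 in CONTROL 2 and 47.6 in MELANOMA ICI 3, and 68.1 in CONTROL 3 and 49.7 in MELANOMA ICI 1. The mean log2 difference was -0.29 ± 0.21 (SD, n = 3 pairs; exact sign-flip p = 0.25, the smallest this test can give). The same-group difference was 0.29, as large in size as this mean.

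The difference in transcripts ran from the 5th to the 99th percentile in runs 2 and 3, and in run 1 it lay above the median. At the 90th percentile CONTROL 1 had 80 transcripts and MELANOMA ICI 2 had 74, CONTROL 2 had 154 and MELANOMA ICI 3 had 113, and CONTROL 3 had 143 and MELANOMA ICI 1 had 106. These are log2 differences of -0.11, -0.45 and -0.43, beside a same-group difference of 0.38. At the 10th percentile, close to the minimum of 10 transcripts, they were 0, -0.13 and -0.30. With the low end held by that minimum, the log2 ratio of the 90th to the 10th percentile was 2.86 and 2.75 in run 1, 3.68 and 3.36 in run 2, and 3.16 and 3.03 in run 3, CONTROL first. The differences in this ratio were -0.11, -0.32 and -0.13, beside a same-group difference of 0.24.

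Cells with 100 transcripts or more, the RNA-rich tail, made up 6.42% of cells in CONTROL 1 and 5.27% in MELANOMA ICI 2. They made up 18.2% in CONTROL 2 and 12.0% in MELANOMA ICI 3, and 21.3% in CONTROL 3 and 11.7% in MELANOMA ICI 1. The share was lower in MELANOMA ICI in 3 of 3 runs (mean log2 difference -0.58 ± 0.29, SD; exact sign-flip p = 0.25), with differences of -0.28, -0.60 and -0.86. Between the 2 CONTROL ICI sections the same share differed by 0.74, more than in runs 1 and 2. At the low end, cells with 10 to 14 transcripts made up 29.1% and 29.3% in run 1, 20.4% and 25.8% in run 2, and 7.22% and 13.8% in run 3, CONTROL first. Cells with 200 transcripts or more did not keep the order in run 1, where they were 0.821% in CONTROL 1 and 0.877% in MELANOMA ICI 2. In run 3 they were 3.76% and 1.22%.

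**Figure D2:**
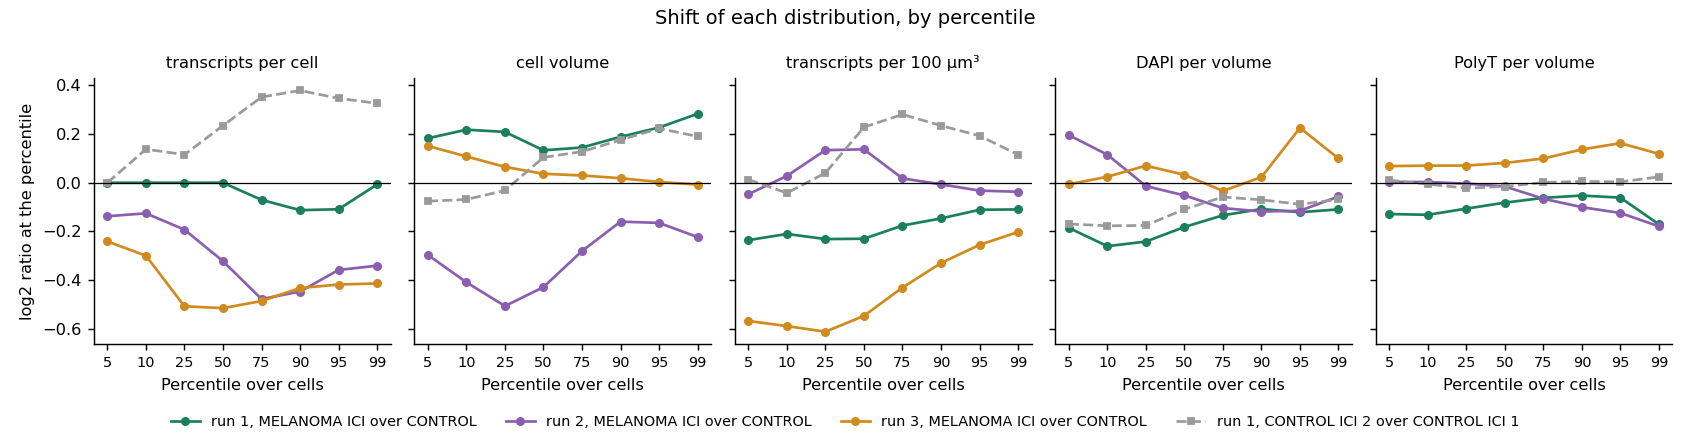
The log2 ratio of MELANOMA ICI over CONTROL (vertical axis) at the 5th to 99th percentile over cells (horizontal axis) for each measure, 1 solid line per run, with the same-group ratio of CONTROL ICI 2 over CONTROL ICI 1 dashed in grey. For transcripts per cell the 3 solid lines lie at or below 0 throughout, at -0.11, -0.45 and -0.43 at the 90th percentile; for volume, DAPI and PolyT the runs lie on both sides of 0 at most percentiles.

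A randomly drawn MELANOMA ICI cell had more transcripts than a randomly drawn CONTROL cell of its run in 49.5% of pairs in run 1, 43.9% in run 2 and 39.2% in run 3, ties counted evenly. The curves were farthest apart at 56 transcripts in run 1, a number reached or not exceeded by 82.4% of CONTROL 1 cells and 84.2% of MELANOMA ICI 2 cells. In run 2 the widest gap lay at 35 transcripts, with 55.8% of CONTROL 2 and 65.2% of MELANOMA ICI 3 cells at or below it. In run 3 it lay at 38 transcripts, with 38.9% of CONTROL 3 and 54.5% of MELANOMA ICI 1 cells. For the same-group pair the widest gap was 60.1% against 50.4% at 20 transcripts, wider than in run 1, close to run 2 and narrower than in run 3.

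**Figure D3:**
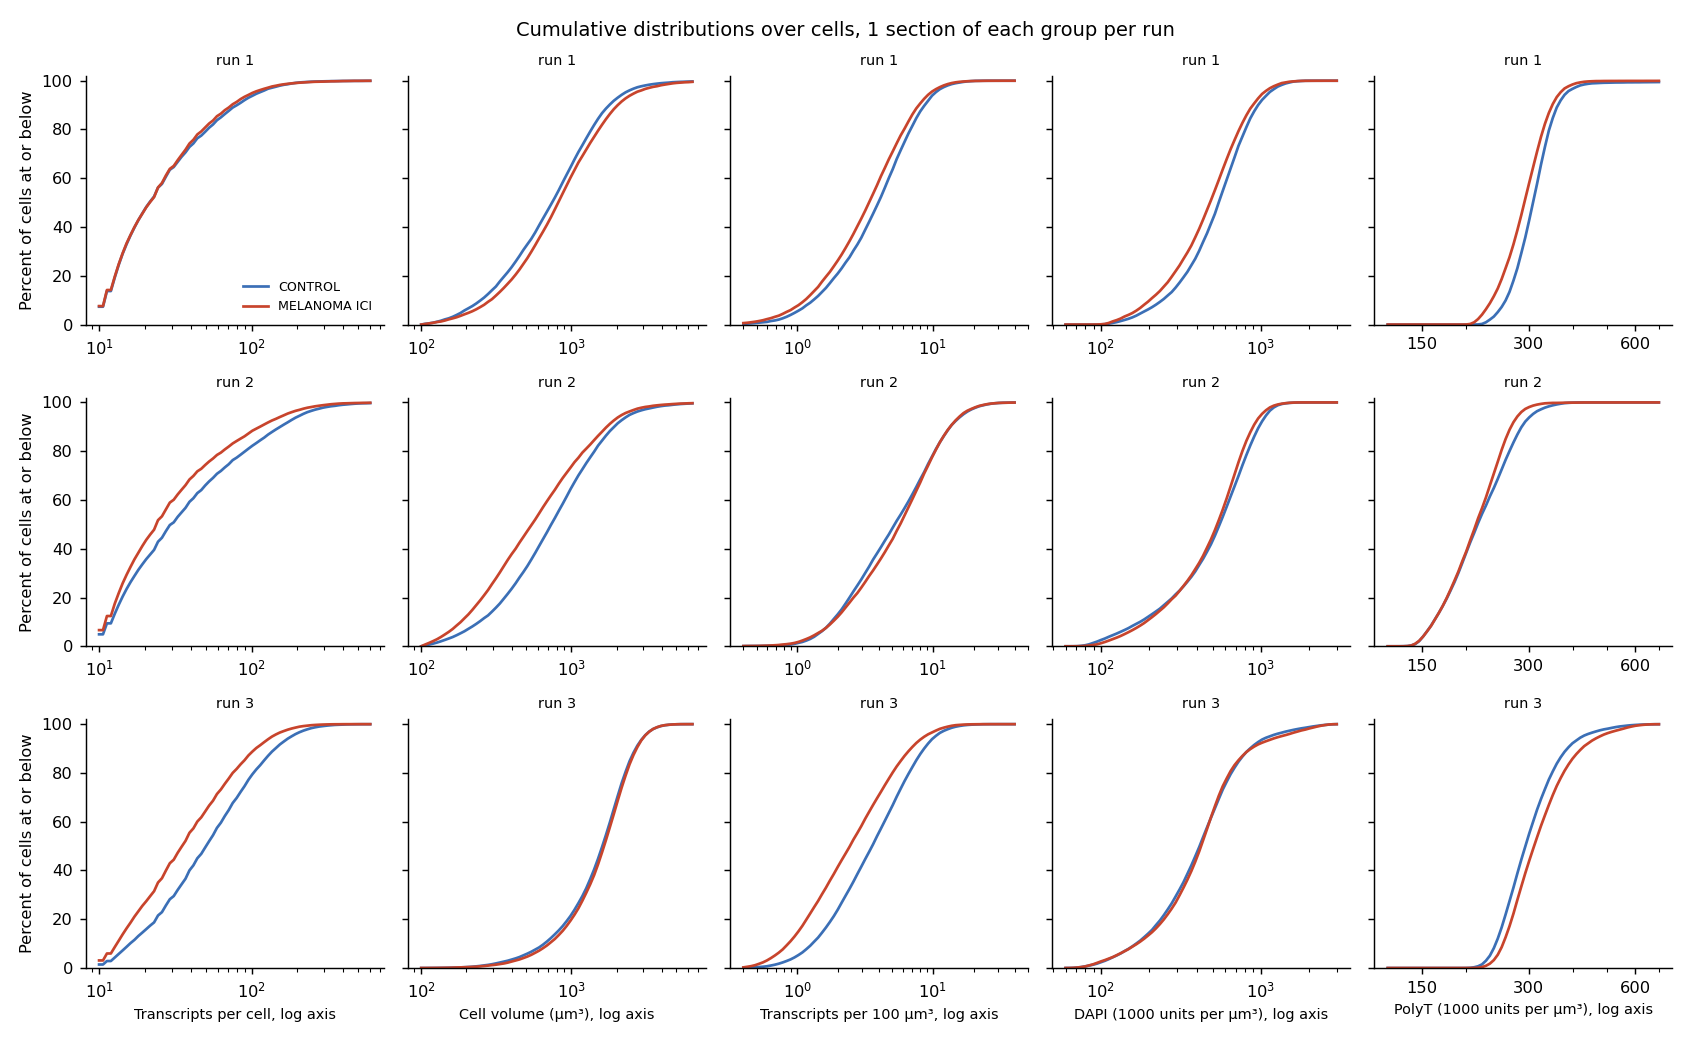
Cumulative distributions over cells, with the percent of cells at or below a value on the vertical axis and each measure on a log horizontal axis, 1 row of panels per run. In run 3 the red MELANOMA ICI curve of transcripts per cell lies above the blue CONTROL curve (54.5% against 38.9% at 38 transcripts), while the volume curves nearly coincide; in run 2 the volume curves part, and in run 1 the transcript curves nearly coincide.

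Cell volume did not move in 1 direction. The median was 744 µm3 in CONTROL 1 and 815 µm3 in MELANOMA ICI 2, 735 µm3 in CONTROL 2 and 546 µm3 in MELANOMA ICI 3, and 1608 µm3 in CONTROL 3 and 1650 µm3 in MELANOMA ICI 1. Only the MELANOMA ICI section of run 2 had smaller cells than its CONTROL section. The log2 differences were 0.13, -0.43 and 0.037, with a mean of -0.086 ± 0.30 (SD, n = 3 pairs; exact sign-flip p = 1, adjusted 1). The same-group difference was 0.10. Group averages were 1029 ± 502 µm3 and 1004 ± 575 µm3 (SD, n = 3 sections each), and most of that spread was between runs.

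Over all cells, the smaller median volume of MELANOMA ICI 3 came with less volume over the footprint and not with a smaller median footprint. Footprint is the area of the bounding box around a cell, and its median was 352 µm2 in CONTROL 2 and 374 µm2 in MELANOMA ICI 3. Volume divided by that area had a median of 2.18 µm in CONTROL 2 and 1.34 µm in MELANOMA ICI 3, a log2 difference of -0.70. In run 1 the same quantity was 1.60 µm in CONTROL 1 and 2.12 µm in MELANOMA ICI 2, a difference of 0.41 in the opposite direction, with footprints of 407 and 379 µm2. In run 3 it was 7.38 µm in CONTROL 3 and 7.37 µm in MELANOMA ICI 1, with footprints of 221 and 227 µm2. The same-group difference was 0.22, smaller than those of runs 1 and 2. The deposited solidity, a shape score, moved with it: its medians were 1.58 and 2.09 in run 1, 2.17 and 1.35 in run 2, and 6.84 and 6.83 in run 3, CONTROL first. In runs 1 and 2 those medians nearly equal volume per footprint, so solidity classes are not independent of volume. The part of solidity in the volume difference was not tested. With solidity classes weighted equally, whatever their cell number, the run 2 difference in volume was -0.036 and that in transcripts per cell 0.078. From the lowest class up, the volume differences were -0.69, -0.21, 0.23, -0.017, 0.15, 0.14 and 0.14. Those in transcripts were 0, 0.061, 0, -0.18, 0.25, 0.20 and 0.21. The classes held 39.4%, 27.1%, 10.25%, 10.8%, 8.06%, 3.63% and 0.813% of MELANOMA ICI 3 cells. Footprint differed within classes too, from -0.54 in the lowest to 0.23 in the class of 2 to 3.

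The low end of the volume distribution showed the same run 2 contrast. Cells under 400 µm3 made up 23.6% of cells in CONTROL 2 and 37.8% in MELANOMA ICI 3. In run 1 they made up 23.5% in CONTROL 1 and 18.5% in MELANOMA ICI 2, and in run 3, where few objects were so small, 3.45% and 2.65%. At the 25th percentile the log2 differences in volume were 0.21, -0.51 and 0.065, and at the 95th they were 0.23, -0.16 and 0.0030.

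Median transcripts per unit of volume were lower in MELANOMA ICI in runs 1 and 3 and higher in run 2, but the direction in run 2 depended on the processing. The median per 100 µm3 was 3.96 in CONTROL 1 and 3.38 in MELANOMA ICI 2, 5.22 in CONTROL 2 and 5.74 in MELANOMA ICI 3, and 3.56 in CONTROL 3 and 2.44 in MELANOMA ICI 1. The gap was widest in run 3. The log2 differences were -0.23, 0.14 and -0.55, with a mean of -0.21 ± 0.34 (SD, n = 3 pairs; 0.863-fold; exact sign-flip p = 0.5, adjusted 0.833). The same-group difference of 0.23 was as large as that of run 1. The run 2 difference turned in 6 of 11 other settings: -0.051 with no filter on objects, -0.13 with the volume minimum alone, -0.074 with the stricter filter of 200 µm3 and 50 transcripts, -0.097 from sums, -0.15 with volume bins weighted equally and -0.51 per bounding box area in place of volume. Per box area, run 1 turned too, to 0.11, while run 3 was below 0 in all 11. Group averages were 4.25 ± 0.865 and 3.85 ± 1.70 per 100 µm3 (SD, n = 3 sections each).

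In run 3, where the cells of both sections had nearly the same volume, the deficit in density was deepest among sparse cells, at -0.61 at the 25th percentile and -0.25 at the 95th on the log2 scale. When all transcripts of the cells were divided by their summed volume, large cells weighed more and MELANOMA ICI was lower in every run. The quotient was 3.86 and 3.27 per 100 µm3 in run 1, 6.28 and 5.87 in run 2, and 4.11 and 2.93 in run 3, CONTROL first.

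Among large cells the direction was the same in all 3 runs. In cells of 1600 to 3200 µm3 the median was 72 transcripts in CONTROL 1 and 50 in MELANOMA ICI 2, 145 in CONTROL 2 and 126.5 in MELANOMA ICI 3, and 68 in CONTROL 3 and 42 in MELANOMA ICI 1. The log2 differences were -0.53, -0.20 and -0.70, with a mean of -0.47 (exact sign-flip p = 0.25 over 3 pairs), beside a same-group difference of 0.12. Those medians rest on 1604 and 2420 cells in run 1, 3103 and 2136 in run 2, and 21531 and 16964 in run 3. In cells of 800 to 1600 µm3 the medians were 32 and 27, 43 and 40, and 41 and 31, with differences of -0.25, -0.10 and -0.40, beside a same-group difference of 0.24. Below 800 µm3, close to the minimum of 10 that every cell had to reach, the medians of runs 1 and 2 differed by at most 1 transcript. In run 3 they were 28 in CONTROL 3 and 24 in MELANOMA ICI 1 at 400 to 800 µm3, and 21 and 19 at 200 to 400 µm3. The class of 1600 to 3200 µm3 was singled out after its values were seen.

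Leaving out that minimum gave the same order among large objects. In all objects of 1600 to 3200 µm3 the median was 46.5 transcripts in CONTROL 1 and 28 in MELANOMA ICI 2, 138.5 in CONTROL 2 and 119 in MELANOMA ICI 3, and 64 in CONTROL 3 and 34 in MELANOMA ICI 1. In the CONTROL ICI sections of run 1 it was 19 and 19. In run 3 the median at 400 to 800 µm3 was then 18 in CONTROL 3 and 11 in MELANOMA ICI 1. In runs 1 and 2 it was 6 and 5, and 13 and 11.

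**Figure D4:**
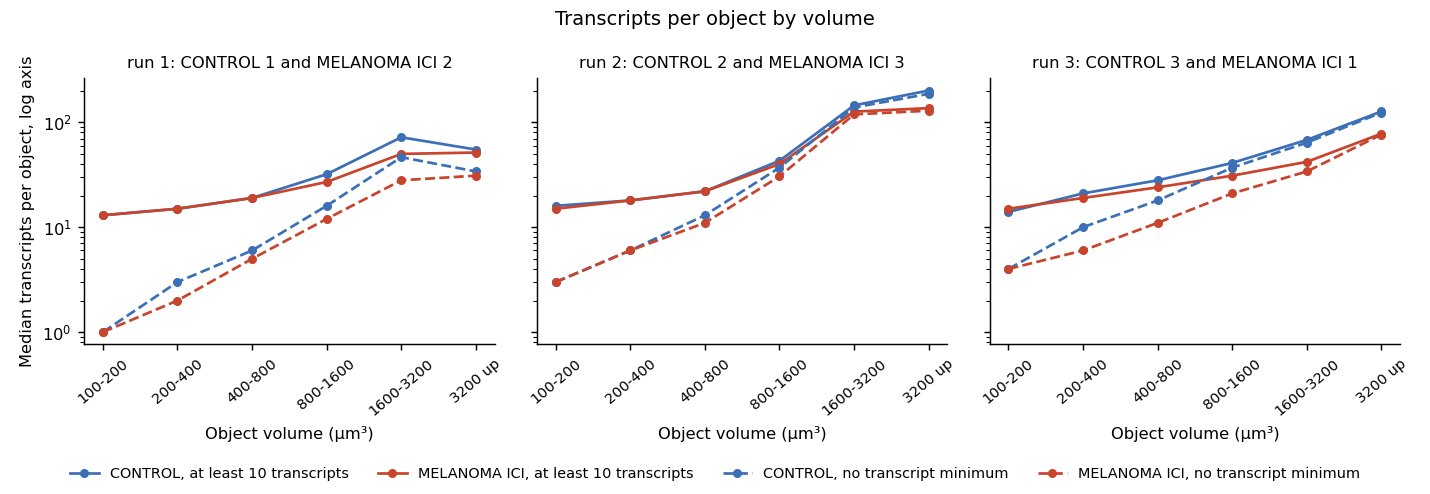
Median transcripts per object (vertical log axis) in 6 volume classes (horizontal axis, µm3), 1 panel per run, blue for CONTROL and red for MELANOMA ICI. Solid lines are objects with at least 10 transcripts and dashed lines have no transcript minimum; at 1600 to 3200 µm3 the solid red line lies below the solid blue line in every run (50 against 72, 126.5 against 145, and 42 against 68).

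Cells of at least 1600 µm3 were few in runs 1 and 2 but held much of the RNA. They made up 13.3% of cells in CONTROL 1 and 18.1% in MELANOMA ICI 2, and held 31.5% and 37.0% of the cells' transcripts. In run 2 they made up 15.7% and 12.0% of cells and held 44.4% and 37.9% of transcripts. In run 3 they made up 50.4% and 52.6% of cells and held 66.4% and 63.8% of transcripts. Their summed density was 3.49 and 2.77 transcripts per 100 µm3 in run 1, 6.82 and 5.96 in run 2, and 3.94 and 2.64 in run 3, CONTROL first. Smaller cells differed less in each run, with 4.06 and 3.66, 5.90 and 5.82, and 4.49 and 3.63. The minimum of 10 transcripts weighs most on small cells, and its part in this was not tested. Without it, log2 differences in median transcripts of runs 1, 2 and 3 were -0.26, -0.24 and -0.71 at 400 to 800 µm3. They were -0.415, -0.28 and -0.82 at 800 to 1600 µm3, and -0.73, -0.22 and -0.91 at 1600 to 3200 µm3. From 3200 µm3 up they were -0.13, -0.54 and -0.70.

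Rank correlations over cells between transcripts and volume were lower in MELANOMA ICI sections, as were several others. Spearman's rho between transcripts and volume over the cells of a section was 0.513 in CONTROL 1 and 0.468 in MELANOMA ICI 2, 0.606 in CONTROL 2 and 0.545 in MELANOMA ICI 3, and 0.476 in CONTROL 3 and 0.321 in MELANOMA ICI 1. The differences were -0.045, -0.061 and -0.15, and between the CONTROL ICI sections 0.031. These are descriptions of 1 section each, over cells that share a section and a transcript minimum. Volume's rho with DAPI per volume (differences -0.036, -0.039 and -0.15, same-group -0.094) and with PolyT per volume (-0.0089, -0.047 and -0.12, same-group -0.15) was also lower in 3 of 3 runs, as was that of transcripts with DAPI per volume (-0.0096, -0.083 and -0.039, same-group -0.050). The rho between transcripts and PolyT per volume showed no such order, at 0.385 and 0.403, 0.543 and 0.486, and 0.506 and 0.527. That between DAPI and PolyT per volume was higher in MELANOMA ICI in 3 of 3 runs, by 0.081, 0.031 and 0.012, beside a same-group difference of 0.065.

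A smaller share of objects reached the size and transcript minimum in MELANOMA ICI sections. In run 1 it was 17.9% of 77643 objects in CONTROL 1 and 14.5% of 111690 in MELANOMA ICI 2. In run 2 it was 32.2% of 73729 in CONTROL 2 and 26.5% of 78404 in MELANOMA ICI 3, and in run 3 86.1% of 53522 in CONTROL 3 and 75.1% of 46254 in MELANOMA ICI 1. The log2 differences were -0.30, -0.28 and -0.20 (mean -0.26 ± 0.055, SD, exact sign-flip p = 0.25), larger in size than the same-group difference of -0.045. The runs were alike only as ratios. In percentage points the drop was smallest in run 1 and largest in run 3. Nearly all objects left out in run 3 had missed the transcript minimum. There 19.7% of MELANOMA ICI 1 objects and 9.52% of CONTROL 3 objects held 1 to 9 transcripts, and 0.318% and 0.303% were under 100 µm3.

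Per area of tissue, MELANOMA ICI sections yielded fewer transcripts in each run. The yield was 67422 transcripts per mm2 in CONTROL 1 and 57481 in MELANOMA ICI 2, 139101 in CONTROL 2 and 113129 in MELANOMA ICI 3, and 138449 in CONTROL 3 and 83729 in MELANOMA ICI 1. It counts the transcripts of all objects, kept or not, over the occupied 100 µm squares. Those squares covered 9.39 and 12.72 mm2 in run 1, 11.48 and 10.14 mm2 in run 2, and 22.86 and 21.18 mm2 in run 3, CONTROL first. Whether the 2 sections of a run covered the same regions was not tested. The log2 differences were -0.23, -0.30 and -0.73, with a mean of -0.42 ± 0.27 (SD; 0.749-fold; exact sign-flip p = 0.25 over 3 pairs), beside a same-group difference of -0.017. Without run 3 the mean was -0.26. With only the transcripts of cells over the squares holding a cell, the differences were -0.31, -0.38 and -0.77. In the same-group pair the transcripts of cells then differed by 0.20 and the area holding cells by -0.28. Its yield on that count therefore differed by far more than -0.017, with the opposite sign. In size that same-group difference was larger than those of runs 1 and 2 on the same count and smaller than that of run 3. Cells per mm2 were 1604 in CONTROL 1 and 1346 in MELANOMA ICI 2, 2133 and 2132 in run 2, and 2214 in CONTROL 3 and 1782 in MELANOMA ICI 1. In run 2 the lower yield thus came with a nearly equal cell density, and in runs 1 and 3 with a lower density of cells. The same-group difference in cell density was 0.19, beside -0.25 in run 1 and -0.31 in run 3.

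DAPI signal per volume was lower in MELANOMA ICI in runs 1 and 2 and slightly higher in run 3. Expressed as 1000 intensity units per µm3 the median was 546 in CONTROL 1 and 482 in MELANOMA ICI 2, 553 in CONTROL 2 and 534 in MELANOMA ICI 3, and 415 in CONTROL 3 and 424 in MELANOMA ICI 1. The log2 differences were -0.18, -0.052 and 0.032 (mean -0.067 ± 0.11, SD, n = 3 pairs; exact sign-flip p = 0.5, adjusted 0.833), and the same-group difference was -0.11. Group averages were 505 ± 78.2 and 480 ± 54.9 (SD, n = 3 sections each). In the brightest cells of run 3 the sections parted further, with a 95th percentile of 1141 in CONTROL 3 and 1334 in MELANOMA ICI 1. In the dimmest cells of run 2 MELANOMA ICI 3 was the brighter, with a 5th percentile of 141 against 123 in CONTROL 2.

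PolyT signal per volume differed between the groups in opposite directions in runs 1 and 3. Its median, in the same units, was 309 in CONTROL 1 and 292 in MELANOMA ICI 2, 215 in CONTROL 2 and 213 in MELANOMA ICI 3, and 294 in CONTROL 3 and 311 in MELANOMA ICI 1. The log2 differences of -0.082, -0.015 and 0.081 averaged -0.0052 ± 0.082 (SD, n = 3 pairs; exact sign-flip p = 0.75, adjusted 0.938). The differences of runs 1 and 3 were opposite in sign and each larger than the same-group difference of -0.015. Group averages were 273 ± 50.1 and 272 ± 51.8 (SD, n = 3 sections each). In run 3 the PolyT signal was thus higher in the section with fewer transcripts per cell. Per bounding box area in place of volume the differences were 0.35, -0.79 and 0.074 for PolyT and 0.22, -0.72 and 0.026 for DAPI, in the order of volume per footprint across runs.

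Within run 3 the higher PolyT signal of MELANOMA ICI 1 was present at every percentile measured, with log2 differences of 0.068 at the 5th, 0.14 at the 90th and 0.16 at the 95th. At matched volume it was present as well. Cells of 400 to 800 µm3 had a median of 283 in CONTROL 3 and 318 in MELANOMA ICI 1, and cells of 1600 to 3200 µm3 had 294 and 304. In run 1 the order was the reverse in both classes, with 304 in CONTROL 1 and 293 in MELANOMA ICI 2, and then 316 and 292.

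The differences were also followed across each section, in squares of 500 µm with at least 50 cells. Squares share a section and are not replicates, so they show only how a difference was spread over the tissue. In run 3, 72 of 86 squares of MELANOMA ICI 1 had a median transcript count below the median of CONTROL 3, and in run 2, 38 of 46 squares of MELANOMA ICI 3 were below that of CONTROL 2. In run 1, 31 of 55 squares of MELANOMA ICI 2 were below CONTROL 1, as were 53 of 54 squares of CONTROL ICI 1 and 23 of 44 of CONTROL ICI 2. Among their own squares, CONTROL 1 had 20 of 38 below its section median, CONTROL 2 had 23 of 50 and CONTROL 3 had 48 of 94. The share of MELANOMA ICI 2 was thus close to that of CONTROL 1 itself. Square medians ran from 25 to 88 transcripts in CONTROL 3 and from 14 to 66 in MELANOMA ICI 1, from 16 to 70 in CONTROL 2 and from 15 to 39 in MELANOMA ICI 3, and from 14 to 31 in CONTROL 1 and from 14 to 38.5 in MELANOMA ICI 2. The ranges overlapped widely in each run.

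The run 2 difference in volume was spread over nearly the whole section. There 44 of 46 squares of MELANOMA ICI 3 had a median cell volume below that of CONTROL 2, and 45 of 46 had a lower volume per footprint, whereas for footprint itself 21 of 46 were lower. Of the 50 squares of CONTROL 2, 24 lay below its own section median for volume, 20 for volume per footprint and 29 for footprint. In run 1, 45 of 55 squares of MELANOMA ICI 2 had a higher volume per footprint than CONTROL 1, beside 17 of 38 squares of CONTROL 1 itself. PolyT per volume was below CONTROL 1 in 48 of 55 squares of MELANOMA ICI 2, beside 21 of 38 squares of CONTROL 1. It was above CONTROL 3 in 65 of 86 squares of MELANOMA ICI 1, beside 47 of 94 squares of CONTROL 3. Transcripts per 100 µm3 were below CONTROL 3 in 66 of 86 squares of MELANOMA ICI 1, beside 45 of 94 squares of CONTROL 3.

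**Figure D5:**
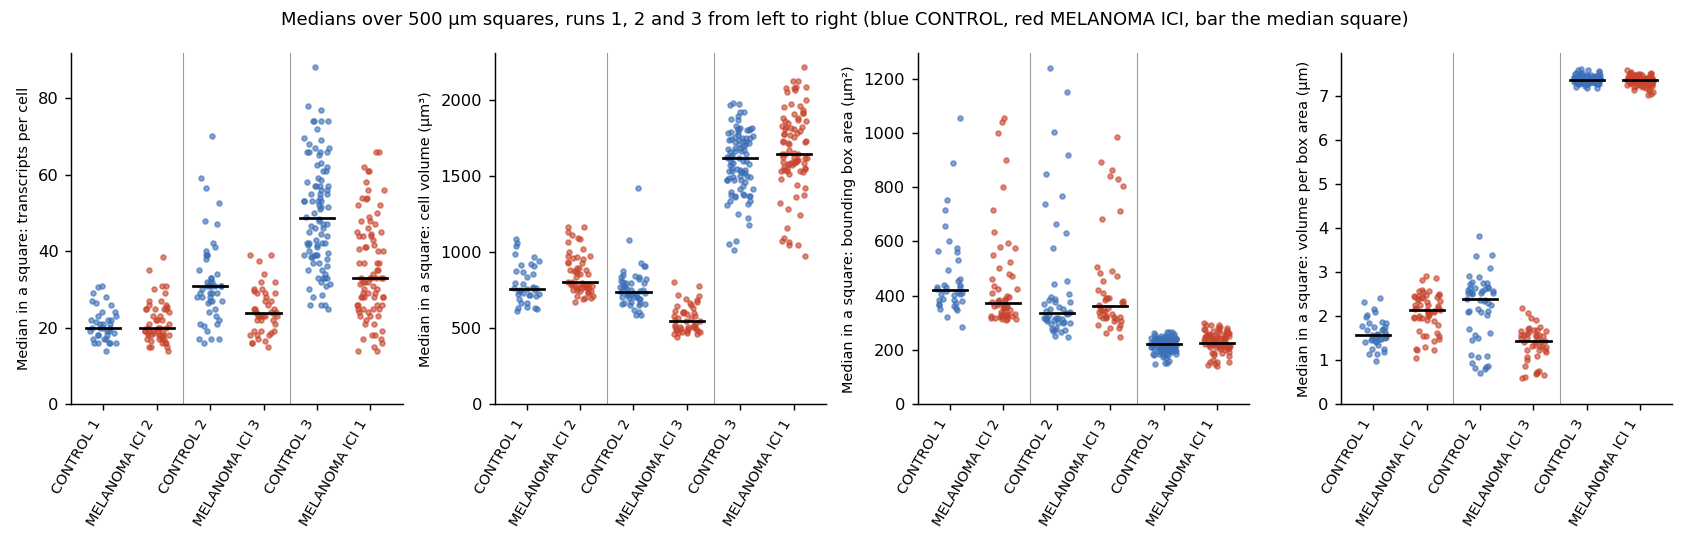
Medians over cells in squares of 500 µm with at least 50 cells, 1 point per square, for transcripts per cell, cell volume, footprint and volume per footprint (vertical axes), by section (horizontal axis). Black bars are the median square. Transcripts of MELANOMA ICI 1 (14 to 66) sit lower than those of CONTROL 3 (25 to 88). Volume per footprint of MELANOMA ICI 3 lies below the CONTROL 2 section median in 45 of 46 squares, beside 20 of 50 squares of CONTROL 2.

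Other sections of the same runs place these pairs. MELANOMA ICI 3 had the lowest median transcripts of run 2, below 29 in MELANOMA 2 and 30 in CONTROL 2, MELANOMA being tumour-bearing mice given isotype antibodies. In run 3 MELANOMA ICI 1, at 35, lay between CONTROL ICI 3 at 26 and CONTROL 3 at 50. In run 1 MELANOMA ICI 2, at 21, lay between the CONTROL ICI sections at 17 and 20 and MELANOMA 1 at 27. For transcripts per mm2, MELANOMA ICI sections lay below CONTROL and above CONTROL ICI in runs 1 and 3. The CONTROL ICI values were 43676 and 43167 in run 1, beside 57481 in MELANOMA ICI 2, and 42317 in run 3, beside 83729 in MELANOMA ICI 1. MELANOMA 1 and MELANOMA 2, at 89472 and 106764, lay above MELANOMA ICI 2 and below MELANOMA ICI 3 of their runs. These placements rest on 1 section each and were not tested.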

How the data were processed

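The authors' tables hold 1 line per segmented object with 17 columns. Transcript numbers are raw counts over all probes, per the file headers. DAPI and PolyT are deposited intensity sums per object in arbitrary units, and solidity is a deposited score whose scale no header or label defines. The deposited tables name no unit for volume or position, and µm3 and µm were assumed. The sources used here do not describe segmentation, software or probes.

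Imaging run was read from the first 4 digits of object identifiers, and not from any measured value. CONTROL and MELANOMA ICI section values agreed in their deviations from group means when paired by run (r 0.967, 0.968 and 0.922 over the 5 measures). They did not when paired by the number in the title (-0.54, -0.084 and -0.78). That title numbers do not follow runs is set by the identifiers, which put CONTROL 1 in run 1 and MELANOMA ICI 1 in run 3. A level shared by the sections of a run, as in run 3, raises r within runs, so r is no test of the pairing. The 5 measures are not independent, and r cannot show whether title numbers pair sections in some other way. Each section gave 1 median over cells. The 3 within-run log2 ratios were tested with a two-sided exact sign-flip test and Benjamini-Hochberg adjustment over 5 measures. Tests given for other quantities were not among the planned ones and were not adjusted. These include the share of cells with 100 transcripts or more, the share of objects kept and transcripts per mm2. Cells were never replicates. Area was the number of 100 µm squares holding an object, or holding a cell for cells per mm2. The members, measures and settings were chosen with earlier results of these data known. The rule for named genes is empty, as no table names genes. Python 3.11.15, numpy 2.4.6, pandas 2.3.3 and scipy 1.17.1 were used. Alternatives were the filter, the summary, the pairing, edges, nearly silent squares, volume matching, the high-pass stain columns, solidity matching and box area.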

Additional observations from a re-analysis of the deposited data

Results flagged for a closer look

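Transcripts outside the kept cells were a larger share in MELANOMA ICI than in the CONTROL section of the same run. Objects that missed the minimum of volume or transcripts held 22.4% of assigned transcripts in MELANOMA ICI 2 against 20.3% in CONTROL 1, 13.7% in MELANOMA ICI 3 against 8.03% in CONTROL 2, and 2.62% in MELANOMA ICI 1 against 0.849% in CONTROL 3. These were singled out because the comparison of cells does not use them. The log2 differences were 0.14, 0.77 and 1.63, beside -0.48 between the 2 CONTROL ICI sections of run 1, which had 34.0% and 24.3%.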

How the results depend on the processing

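Of 70 alternative values over the 5 measures that could move a mean, 60 kept its direction, and no test could pass the threshold with 3 pairs. Mean log2 differences in transcripts per cell stayed below 0 in all 13 such settings, from -0.73 with no filter on objects to -0.12 with at least 200 µm3 and 50 transcripts, and those in transcripts per 100 µm3 in all 14, from -0.49 to -0.046. The 10 means that turned reached 0.085, for cell volume without run 2, close in size to its main mean of -0.086. PolyT per volume turned to 0.033 without run 1, beside a main mean of -0.0052. The rest were as follows. Cell volume was 0.038 with the stricter filter, 0.032 with solidity matched and 0.0096 with box area in its place. DAPI per volume was 0.0051 with no filter. PolyT per volume was 0.0087 with the stricter filter, 0.00094 without section edges, 0.0016 with the high-pass column and 0.0093 with solidity matched. Solidity matching and box area were added after the data were seen, and the cause was not tested. Single pairs turned too: in run 1 volume was -0.11 with no filter and -0.10 as box area. With box area in place of volume the mean was -0.16 for DAPI and -0.12 for PolyT, well beyond the values per volume.

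With each pair left out in turn, the mean ran from -0.42 to -0.16 for transcripts per cell, -0.20 to 0.085 for volume (0.085 without run 2), -0.39 to -0.046 for density (-0.046 without run 3), -0.12 to -0.0098 for DAPI, and -0.048 to 0.033 for PolyT (0.033 without run 1). Pairing by title number, as a replicate block, leaves every mean as it is by construction, -0.28 for transcripts per cell, with exact p = 0.75 for the 3 pairs. With volume bins weighted equally, whatever their cell number, transcripts per cell were lower in 3 of 3 runs (mean -0.22). In run 2, at -0.16, the bin from 3200 µm3 up differed by -0.56 and held 1.74% of MELANOMA ICI 3 cells. The bins of 200 to 400 and 400 to 800 µm3, with 25.5% and 27.7% of them, differed by 0. The remaining bins differed by -0.093, -0.10 and -0.20. In transcripts per 100 µm3 the bin from 3200 µm3 up differed by -0.62 in run 2. With solidity classes weighted equally, whatever their cell number, run 2 had a transcript difference of 0.078. Under the stricter filter the share of objects kept differed by -0.61, cells per mm2 by -0.52 and transcripts in cells of 1600 to 3200 µm3 by -0.19, each lower in 3 of 3 runs.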
